A study of Mus musculus with 34 samples.

Results

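Lysosomal genes were followed in mouse bone marrow-derived macrophages: the cathepsins, the subunits of the vacuolar proton pump (V-ATPase), the soluble hydrolases and a few membrane proteins. The members were every gene whose symbol began with Atp6v or Atp6ap (15 genes), every symbol of Cts plus 1 letter except Ctss (12 genes), and 17 of 19 listed genes, since Mcoln1 and Arsb had no named probe set. This gave 44 genes of 8252 named on the array, standing on 66 of 12488 probe sets. Each gene was read from its probe set with the highest mean signal. Ctsg and Ctsw never reached a signal of 200 (their highest values were 106 and 37.4), so 42 members entered the tests, and 40 of the 44 were at or above 200 on all 32 grouped arrays.

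Lysosomes degrade material delivered by endocytosis, phagocytosis and autophagy. The V-ATPase pumps protons into them, cathepsins and other acid hydrolases work in the resulting acid lumen, and channels and transporters of the limiting membrane release ions, lipids and breakdown products. Many genes of this set are known to share a short promoter element, the CLEAR element, which is read by the transcription factor TFEB and its relatives. In macrophages these organelles also kill ingested microbes and supply peptides for antigen presentation.

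The study stimulated wild-type, IL-10-/- and IL-6-/- macrophages with bacterial lipopolysaccharide (LPS), with or without a cytokine, and read RNA on Affymetrix MG-U74Av2 arrays. LPS was given at 100 ng/ml for 45 or 180 min, either alone or combined with IL-10 (10 ng/ml) or, for 45 min only, with IL-6 (2 ng/ml). Each of the 15 stimulated groups had 2 arrays, except the IL-6-/- groups with LPS alone, which had 1 array at each time; the resting group, unstimulated, had 4. Resting macrophages had been grown for 7 days in L-cell conditioned medium, a source of CSF-1, and rested for 1 h in DMEM. The labels give no culture details for the stimulated cells, no genotype for the resting ones, and no strain, age or sex of the mice or detail of how Il10 or Il6 was disrupted.

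Resting and stimulated arrays differed in other genes than those of the LPS response. Of 11 stromal marker genes tested, 10 were higher with LPS than in resting cells at both times. Over all probe sets 9% were higher at 45 min and 14.4% at 180 min. The summed signal of all 14 stromal markers on the array was 1480 to 4457 on resting arrays and 9351 to 16801 on stimulated ones. None of the 11 was called between 180 and 45 min in wild type, in IL-10-/- or with LPS plus IL-10 by limma. Over all probe sets 13.9%, 17.1% and 32.8% were called, so the wild-type count is not far from its share. By genotype the sum over the 14 on stimulated arrays was 11399 to 13808 in wild type, 13534 to 16801 for IL-10-/- and 9351 to 10386 for IL-6-/-; its part in comparisons between genotypes was not tested either. The labels do not say whether resting and stimulated cells came from the same mice, and a second Ctse probe set described further on also sets resting arrays apart from stimulated wild type. In comparisons with resting cells LPS and any such difference of source therefore cannot be told apart, and fewer cells of a type cannot be told apart from less RNA per cell. All 9 genes of an LPS response check rose against resting at both times (9% and 14.4% of all probe sets). The macrophage markers Csf1r and Cd68 were strong (means of 28694 and 16969 in resting cells). The Il10 and Il6 probe sets gave signal in their own knockouts, so they check neither genotype. Resting replicate 4 stood farthest from its group, at a root mean square log2 distance of 0.709 against 0.536 to 0.573 for the other resting arrays.

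A large share of the lysosomal genes was lower after 180 min of LPS than in resting cells, and 1 gene, Mcoln2, was much higher. In wild type, 22 of 42 members were lower at 180 min than in resting cells and 3 were higher (Mcoln2, Ctsc and Ctsz). Over all 8224 probe sets tested, 19.4% were lower and 14.4% higher, or 33.8% in either direction. The median change of the members was -0.64 on the log2(signal + 50) scale, which is used for all changes here, against -0.09 for all probe sets. A change was called at an adjusted p under 0.05 in limma, adjusted by Benjamini-Hochberg over all probe sets tested. Of these 25 calls, 17 were kept in each of the 6 fits that left out 1 array.

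At 45 min the change was smaller: 8 members were lower (7.75% of all probe sets) and 2 higher (9% of all), with a median of -0.09 against 0.03. The 8 were Ctsl, Ctsh, Ctsa, Atp6v1b2, Atp6v0e, Man2b1, Glb1 and Npc2, and the 2 were Atp6v1c1 and Mcoln2. This count rests on few arrays: it was 3 without wild-type LPS 45 min replicate 2 and 5 without replicate 1, and only Ctsa kept its call in all 6 such fits. Group means stepped down from resting to 45 to 180 min for 21 of the 42 members, against 27.1% of all probe sets.

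**Figure D1:**
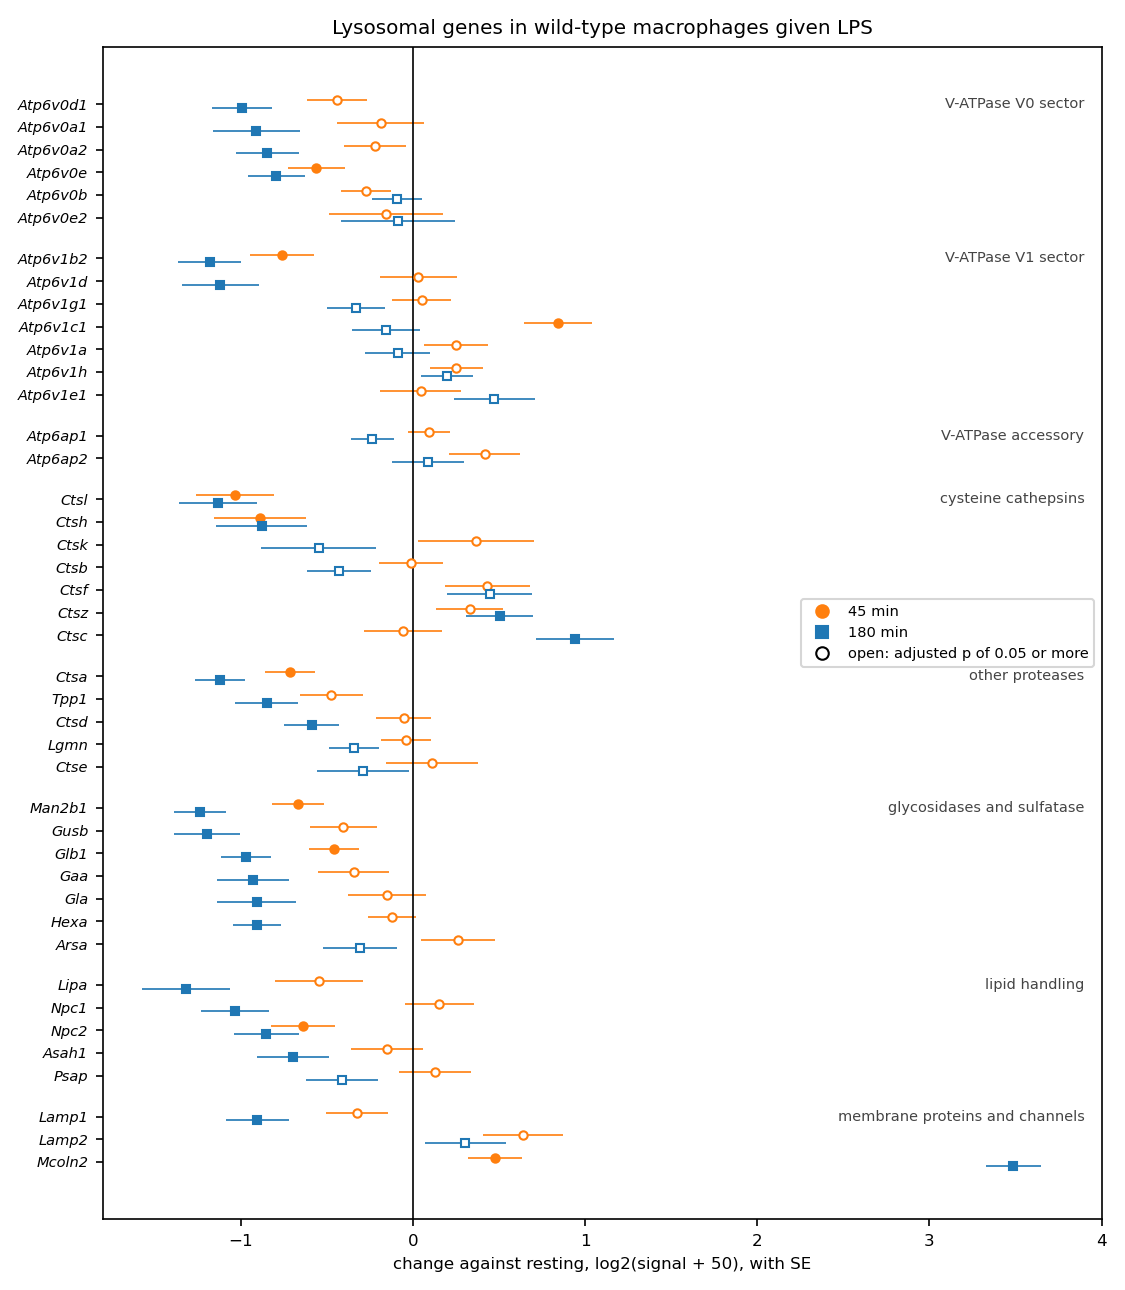
Change of each of the 42 tested members against resting cells in wild type given LPS for 45 min (circles) or 180 min (squares), in log2(signal + 50), with the standard error as bars; filled symbols passed an adjusted p of 0.05. At 180 min, 22 filled squares lie left of 0 and 3 lie right of it, Mcoln2 at 3.49.

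The fall between 45 and 180 min could be read without the resting cells, in sets of arrays that share none. Within the 6 combinations of genotype and arm (LPS or LPS plus IL-10), 28 of 42 members (66.7%) had a lower mean at 180 than at 45 min in all 6, against 23.8% of all probe sets; the IL-6-/- LPS combination rests on 1 array at each time. Only Mcoln2, Ctsc and Atp6v1e1 were higher in all 6. In wild type with LPS alone 8 members were lower (7.13% of all) and 2 higher (6.77%), and in IL-10-/- 17 were lower (10.5%) and 2 higher (6.57%). With LPS plus IL-10, as the mean of the 3 genotypes, 23 were lower (20.2%) and 3 higher (12.5%), and 23 of these 26 calls were kept in each of the 12 fits without 1 array.

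The single-genotype counts depended on every array. The wild-type count of 10 became 5 without LPS 180 min replicate 2 and 6 without either 45 min array, and Hexa, Npc1 and Mcoln2 kept their calls in all 4 such fits. The IL-10-/- count of 19 became 9 and 10 without LPS 45 min replicate 2 and LPS 180 min replicate 2, and 12 without either replicate 1. Arsa, Atp6v0d1, Atp6v0e, Glb1, Gusb, Hexa and Npc1 kept their calls there. The difference between the genotypes was itself tested: Mcoln2 differed, and 0 of the other 41 members did by limma, with 2 at an unadjusted p under 0.05 (0.766% of all probe sets were called lower and 0.353% higher, 1.12% in all).

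For 6 members no stimulated array at 180 min overlapped any at 45 min, over 11 and 17 arrays from all genotypes and arms: Hexa, Npc1, Lipa, Ctsa, Atp6v1b2 and Atp6v1c1. All 6 were lower at 180 min, as were 6.19% of all probe sets, while 3.54% were higher without overlap. Their values follow with the role groups they belong to.

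Among lipid-handling genes, Npc1 encodes the membrane transporter that exports cholesterol from lysosomes. Its signal was 5064, 2962, 3403 and 3453 in resting cells, 3476 and 4743 in wild type at 45 min, and 1494 and 2064 at 180 min. The gene stayed in the resting range at 45 min and lay below it on both arrays at 180 min. The change from 45 to 180 min was -1.19 ± 0.23 (SE, n = 2 against 2, limma adjusted p = 0.00068). In IL-10-/- the signals were 2790 and 2966 at 45 min and 1016 and 1037 at 180 min, a change of -1.44 ± 0.23 (limma adjusted p = 6.5e-05). With IL-10 the same drop was seen in all 3 genotypes (mean change -1.20 ± 0.13, limma adjusted p = 1.1e-07).

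Lipa, the acid lipase that splits cholesteryl esters and triglycerides, had the largest fall against resting cells. Its signals were 5191, 2122, 4007 and 3024 at rest and 1451 and 1228 in wild type after 180 min (-1.32 ± 0.25, limma adjusted p = 0.00024). Resting cells spread widely, yet the lowest of them exceeded both LPS arrays. In IL-6-/- with LPS plus IL-10 the gene dropped from 2077 and 2703 at 45 min to 642 and 733 at 180 min, the lowest signals of Lipa in the series. Npc2, the soluble partner of Npc1, changed by -0.85 ± 0.19 at 180 min, and Asah1, the acid ceramidase, by -0.70 ± 0.21 (limma adjusted p = 0.00088 and 0.012, against resting). The call of Asah1 was lost without wild-type LPS 180 min replicate 2. Psap, the precursor of the saposins that assist sphingolipid breakdown, was not called (-0.41, limma), so 4 of the 5 lipid-handling genes fell (19.4% of all probe sets).

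Among glycosidases and the sulfatase, 6 of 7 genes of this group were lower at 180 min against resting (19.4% of all probe sets), with a median of -0.93. Hexa, the alpha subunit of beta-hexosaminidase, gave 12189, 8928, 9572 and 10698 at rest, 8897 and 10024 in wild type at 45 min, and 5604 and 5321 at 180 min. In wild type, 1 array at 45 min lay inside the resting range and 1 just under it, and both arrays at 180 min were far below. Over all stimulated arrays the range was 8345 to 10112 at 45 min and 4792 to 6475 at 180 min. The change from 45 to 180 min was -0.78 ± 0.16 in wild type, -0.80 ± 0.16 in IL-10-/- and -0.79 ± 0.09 as the mean with IL-10 (limma adjusted p = 0.0010, 0.00078 and 2.0e-07).

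Gusb, beta-glucuronidase, and Man2b1, lysosomal alpha-mannosidase, changed by -1.20 ± 0.19 and -1.24 ± 0.15 against resting (limma adjusted p = 2.8e-05 and 4.6e-07). For Man2b1 the signals were 18269, 14814, 16672 and 17384 at rest, 9270 and 11936 at 45 min, and 6523 and 7661 at 180 min in wild type. It was already below all resting arrays at 45 min, unlike Hexa. Glb1 (beta-galactosidase), Gaa (acid alpha-glucosidase) and Gla (alpha-galactosidase A) changed by -0.97, -0.93 and -0.91 against resting. The call of Gla was lost without wild-type LPS 180 min replicate 1. Arsa, arylsulfatase A, was the exception against resting (-0.31, not called by limma), but it fell between 45 and 180 min in IL-10-/-, from 561 and 814 to 290 and 244 (-1.20 ± 0.25, limma adjusted p = 0.0011).

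**Figure D2:**
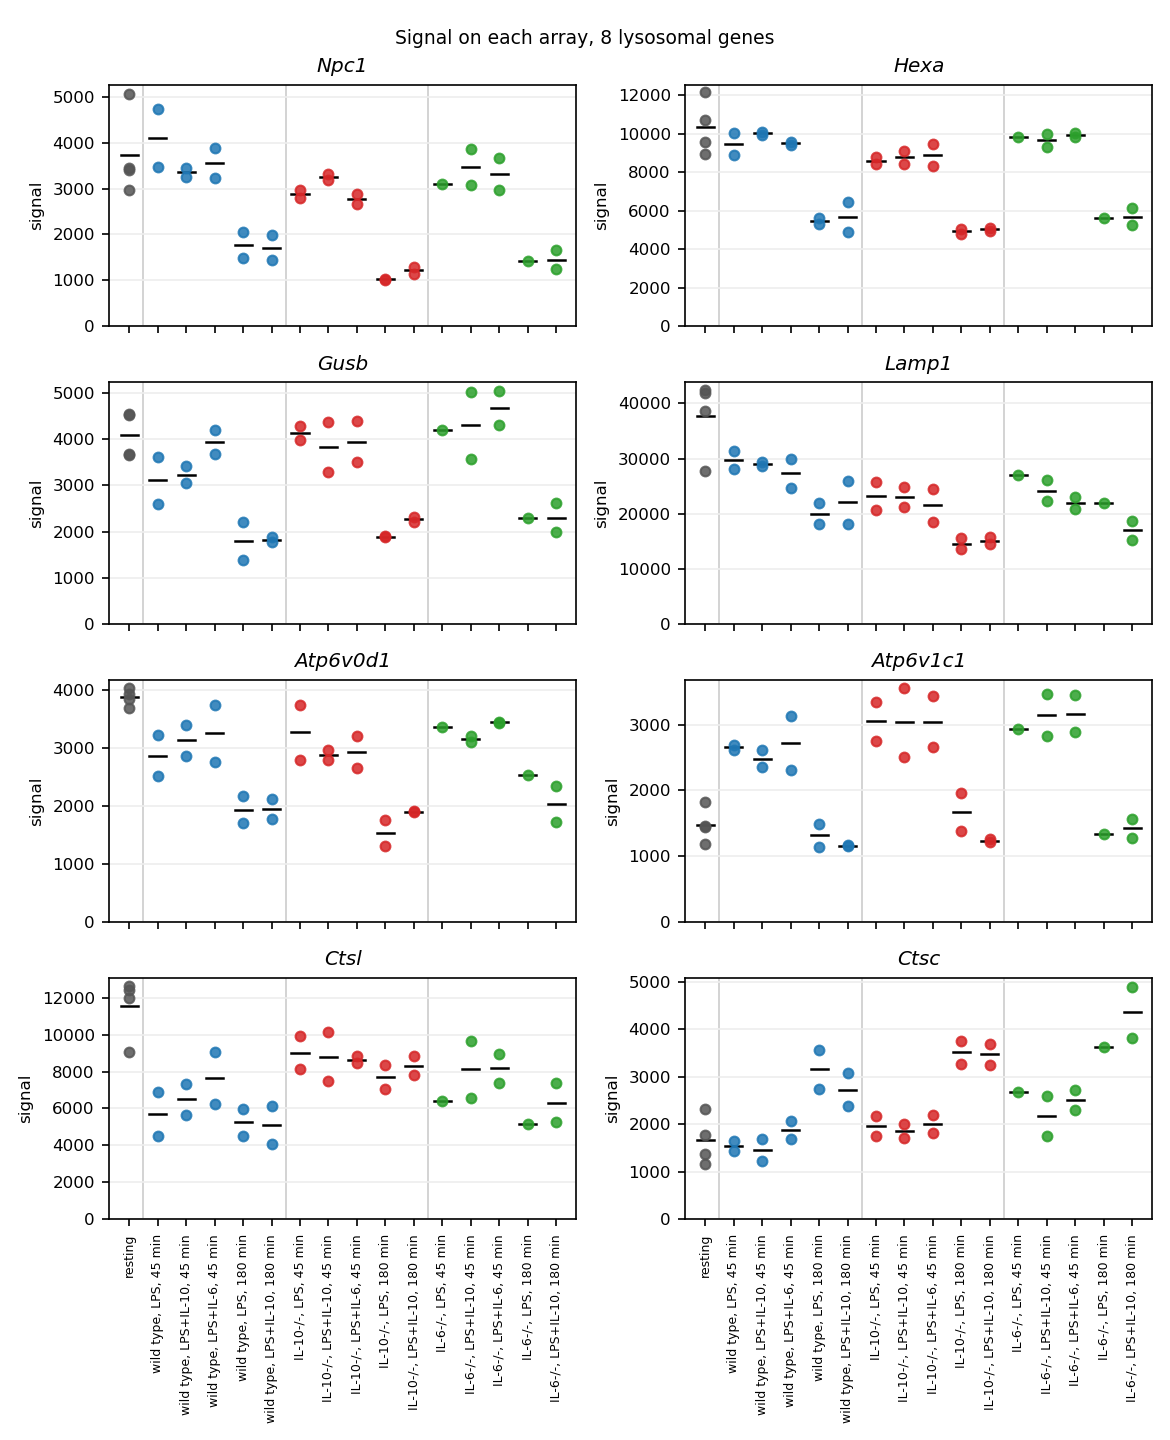
Signal on each of the 32 grouped arrays for 8 members, linear axes from 0; points are arrays, bars group means, grey resting, blue wild type, red IL-10-/-, green IL-6-/-. Npc1, Hexa and Atp6v1c1 are lower at 180 min than at 45 min on every stimulated array; Ctsl is below every resting array at 45 min in wild type with LPS alone, and the group means of Ctsc are higher at 180 min.

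V-ATPase subunits split by gene. The pump has a membrane sector (V0), through which protons pass, and a cytosolic sector (V1), which hydrolyses ATP. Of 6 V0 genes 4 were lower at 180 min against resting (Atp6v0d1, Atp6v0a1, Atp6v0a2 and Atp6v0e), of 7 V1 genes 2 were lower (Atp6v1b2 and Atp6v1d), and of the accessory genes Atp6ap1 and Atp6ap2 neither was called by limma. Over all probe sets 19.4% were lower, and the V1 count is not far from that share. Atp6v0d1 gave 4040, 3933, 3691 and 3848 at rest, 2509 and 3223 at 45 min and 1705 and 2165 at 180 min in wild type (-0.99 ± 0.17, limma adjusted p = 8.5e-05). The 4 resting arrays were tight, and no wild-type array with LPS alone reached them. The call of Atp6v0a1 was lost without wild-type LPS 180 min replicate 1 and that of Atp6v0e without replicate 2. The call of Atp6v0a2 was lost when all its probe sets were averaged (limma adjusted p = 0.48).

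Within V1 the time courses differed. Atp6v1b2, a nucleotide-binding B subunit, gave 7040, 5384, 8828 and 4365 at rest, 3371 and 3909 at 45 min, and 2611 and 2793 at 180 min in wild type (-1.18 ± 0.18 at 180 min, limma adjusted p = 1.8e-05). Atp6v1c1, a C subunit that joins the sectors, gave 1821, 1175, 1454 and 1442 at rest, 2618 and 2695 at 45 min, and 1481 and 1144 at 180 min. It rose by 0.85 ± 0.20 at 45 min (limma adjusted p = 0.0042) and at 180 min 1 array lay in the resting range and 1 just below it (-1.001 ± 0.228 from 45 to 180 min, limma adjusted p = 0.0034). Without wild-type LPS 45 min replicate 2 the rise had an adjusted p of 0.051 in limma. Between 45 and 180 min Atp6v1c1 also fell in IL-10-/- (-0.87) and with LPS plus IL-10 (-1.14).

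Atp6v1e1, a stalk subunit of V1, went up with time in place of down. In IL-10-/- it gave 2028 and 1841 at 45 min and 3672 and 3634 at 180 min with LPS alone (0.90 ± 0.27, limma adjusted p = 0.022). Each of the 4 fits without 1 array lost this call (limma adjusted p from 0.068 to 0.14). In wild type the values were 2457 and 1404 at 45 min and 2851 and 2226 at 180 min, which overlap and were not called. Atp6v0b, Atp6v0e2, Atp6v1a and Atp6v1h were not called in any of the 16 comparisons by limma.

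Cysteine cathepsins differed in direction. Of 7 tested, 2 were lower against resting at 180 min (Ctsl and Ctsh) and 2 higher (Ctsc and Ctsz). Over all probe sets 19.4% were lower and 14.4% higher, so these counts are not read as a result for the group. At 180 min the calls of Ctsh, Ctsc and Ctsz each depended on single arrays, and that of Ctsl did not. Between 45 and 180 min none of the 7 fell by limma in any arm on the probe set that stands for the gene. Ctsl, an endopeptidase of the lysosomal lumen, gave 12432, 12650, 11978 and 9061 at rest, 6882 and 4485 at 45 min, and 5948 and 4535 at 180 min in wild type. Its drop was complete at 45 min (-1.03 ± 0.23, limma adjusted p = 0.0025) and 180 min added no called change (-0.10). In IL-10-/- the Ctsl signals were 9901 and 8132 at 45 min, above both wild-type arrays, and 1 of them inside the resting range; the difference between genotypes was not called at 45 min over the 3 arms (0.44, limma adjusted p = 0.22). The 45 min call was lost without wild-type LPS 45 min replicate 2 (limma adjusted p = 0.11).

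Ctsc, the dipeptidyl peptidase that activates granule serine proteases, gave 1168, 1779, 2316 and 1380 at rest, 1660 and 1432 at 45 min, and 3574 and 2745 at 180 min in wild type. It changed by 1.00 ± 0.26 from 45 to 180 min in wild type, 0.83 ± 0.26 in IL-10-/- and 0.92 ± 0.15 with LPS plus IL-10 (limma adjusted p = 0.0100, 0.029 and 3.0e-05). Only the last was kept in all fits without 1 array. A second Ctsc probe set was called in that comparison too (0.73 ± 0.18, limma adjusted p = 0.0027) and in no other.

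Ctsb, a cysteine cathepsin with endo- and exopeptidase activity, ranged from 35989 to 49227 in wild type at 180 min with or without IL-10 and from 44700 to 74225 at rest, and its change of -0.43 against resting was not called by limma. Of its 3 other probe sets, 2 were called lower at 180 than at 45 min with LPS plus IL-10 (-0.46 ± 0.14 and -0.60 ± 0.17, limma adjusted p = 0.013 and 0.0074), and 1 of these also in IL-10-/- (-0.90 ± 0.29, limma adjusted p = 0.034). The fall of Ctsb with time therefore depends on the probe set. Ctsk, known from osteoclasts, was dim (103 to 539 over all arrays) and called nowhere by limma. Ctsz, a carboxypeptidase, rose by 0.51 ± 0.19 against resting (limma adjusted p = 0.047), a call lost in 4 of the 6 fits without 1 array, among them both without a wild-type LPS array.

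Among the other proteases, Ctsa, the protective protein that stabilises beta-galactosidase and neuraminidase, had the tightest fall. Its signals were 7553, 7612, 7872 and 8585 at rest, 4619 and 4987 at 45 min, and 3290 and 3962 at 180 min in wild type. The 3 groups did not overlap (-1.12 ± 0.14 at 180 min against resting, limma adjusted p = 1.4e-06). Tpp1, a tripeptidyl peptidase, changed by -0.85 ± 0.18, and Ctsd, the major aspartic protease, by -0.59 ± 0.16 (limma adjusted p = 0.00071 and 0.0055, against resting). The call of Ctsd was lost without wild-type LPS 180 min replicate 1. Lgmn, the asparaginyl endopeptidase legumain, was not called against resting (-0.34, limma) but fell between 45 and 180 min in IL-10-/- (-0.60 ± 0.17, limma adjusted p = 0.013), a call lost in 3 of 4 fits without 1 array.

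Lamp1, the abundant glycoprotein that lines the lysosomal membrane, gave 42394, 41930, 27778 and 38662 at rest, 31322 and 28110 at 45 min, and 18039 and 21877 at 180 min in wild type (-0.90 ± 0.18, limma adjusted p = 0.00039). Its relative Lamp2 did not follow: 2507, 2200, 2215 and 2958 at rest, 4480 and 3310 at 45 min, and 3549 and 2607 at 180 min. The Lamp2 change at 180 min was 0.31 and was not called by limma.

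The promoters of these genes were read from RefSeq windows on GRCm38.p6. They run from 250 bases before to 50 bases after an annotated start, and 33 of the 44 members had a window. The E-box core CACGTG (its own reverse complement, so both strands are covered) occurred in 15 of the 33 (45.5%), against 8.09% of 27025 genes with a window. The longer CLEAR core TCACGTGA, which contains it and is also its own reverse complement, occurred in 6 (18.2%; 1.12% of genes). Stretches upstream of the start are printed for 6 members that were lower at 180 min and carry the core there, and for Mcoln2, since both kinds carry it; they run 5′ to 3′ in the direction of the gene, and capitals mark CACGTG.
Lamp1, chr8:13159080-13159160 (+): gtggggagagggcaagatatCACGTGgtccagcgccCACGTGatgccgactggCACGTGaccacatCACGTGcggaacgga
Ctsa, chr2:164833741-164833772 (+): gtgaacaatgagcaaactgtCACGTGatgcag
Ctsd, chr7:142387900-142388077 (-): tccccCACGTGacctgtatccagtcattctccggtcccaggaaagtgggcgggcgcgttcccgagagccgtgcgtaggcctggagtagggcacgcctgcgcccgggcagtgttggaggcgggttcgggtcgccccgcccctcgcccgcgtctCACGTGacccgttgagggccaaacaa
Glb1, chr9:114401010-114401055 (+): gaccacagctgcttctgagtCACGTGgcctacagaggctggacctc
Gaa, chr11:119267803-119267848 (+): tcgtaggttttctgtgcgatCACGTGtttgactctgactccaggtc
Gla, chrX:134601174-134601252 (-): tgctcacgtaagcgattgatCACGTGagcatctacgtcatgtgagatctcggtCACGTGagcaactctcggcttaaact
Mcoln2, chr3:146149924-146150173 (+): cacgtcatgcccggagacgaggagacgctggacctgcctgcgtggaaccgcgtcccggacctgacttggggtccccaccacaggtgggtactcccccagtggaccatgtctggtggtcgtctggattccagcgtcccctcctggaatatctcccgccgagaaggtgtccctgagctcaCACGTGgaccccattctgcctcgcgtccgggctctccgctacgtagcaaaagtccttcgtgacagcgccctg
The printed stretch of Lamp1 carries 4 copies of the core within 81 bases, those of Ctsd and Gla 2 each, and the others 1. Ctsa has another copy after the start used for its window. For Ctsa and Mcoln2 that start is a later one: the genes begin at 164832872 and 146149796. Their printed stretches therefore lie inside the gene and not upstream of its first base. A match is a description of letters in this window and not a binding site.

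Members with and without the core are given side by side, with no test of the difference. Against resting at 180 min, 19.4% of all probe sets were lower and 14.4% higher. Of 15 tested members with CACGTG, 9 were lower and 1 higher, with a median change of -0.79. Of 17 tested members with a window but no core, 8 were lower and 2 higher, with a median of -0.55. Between 45 and 180 min with LPS plus IL-10 the counts were 9 of 15 and 9 of 17 lower (20.2% of all probe sets), with medians of -0.33 and -0.37. In IL-10-/- with LPS alone they were 8 of 15 and 7 of 17 lower (10.5% of all probe sets), with medians of -0.6 and -0.54. Letters of the form TTCNNNGAA, in which STAT factors are known to bind, occurred in the windows of Arsa, Ctsc and Ctsg (9.09% of members; 9.55% of genes, both strands), and not in that of Mcoln2.

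Mcoln2 encodes TRPML2, a cation channel of endosomes and lysosomes, and it was the member that changed with LPS, with IL-10 and with the Il10 genotype. Its signal was 441, 436, 608 and 436 in resting cells and 682 and 681 in wild type after 45 min of LPS. After 180 min it was 5605 and 6097. Both arrays at 180 min stood far above all others with LPS alone in wild type: the rise was 3.49 ± 0.16 against resting, an 11.2-fold difference on the log2(signal + 50) scale, and 3.01 ± 0.18 against 45 min (limma adjusted p = 1.3e-14 and 1.8e-11).

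In IL-10-/- macrophages that rise was not seen. Mcoln2 gave 472 and 441 at 45 min and 486 and 561 at 180 min with LPS alone (0.18 ± 0.18 from 45 to 180 min, limma adjusted p = 0.56). All of these lay below the highest resting array, replicate 3 at 608. The values of 472, 486 and 561 lay above the other resting arrays, at 435.6 to 441.2. A change of IL-10-/- against resting was not tested. Against wild type at 180 min the difference was -3.37 ± 0.18 (limma adjusted p = 4.6e-12), and the time courses of the genotypes differed by -2.83 ± 0.26 (limma adjusted p = 2.0e-07). The IL-6-/- arrays with LPS alone gave 632 at 45 min and 4288 at 180 min, from 1 array each, so the Mcoln2 rise was present where Il6 and not Il10 was disrupted.

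When IL-10 was added to IL-10-/- cells together with LPS, Mcoln2 gave 6451 and 6462 at 180 min. Added IL-10 raised the gene by 3.51 ± 0.18, or 11.4-fold on the log2(signal + 50) scale (limma adjusted p = 1.4e-12), to a level that did not differ by limma from wild type given LPS plus IL-10 (8159 and 8609; -0.37 ± 0.18, adjusted p = 0.77). In wild type, added IL-10 took the signal from 5605 and 6097 to those values; the arrays did not overlap, but the change of 0.52 ± 0.18 was not called (limma adjusted p = 0.55). The response in IL-10-/- exceeded that in wild type by 2.99 ± 0.26 (limma adjusted p = 9.0e-08). With IL-10 at 180 min IL-6-/- cells gave 7055 and 6218. Each of these calls was kept in every fit that left out 1 array.

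**Figure D3:**
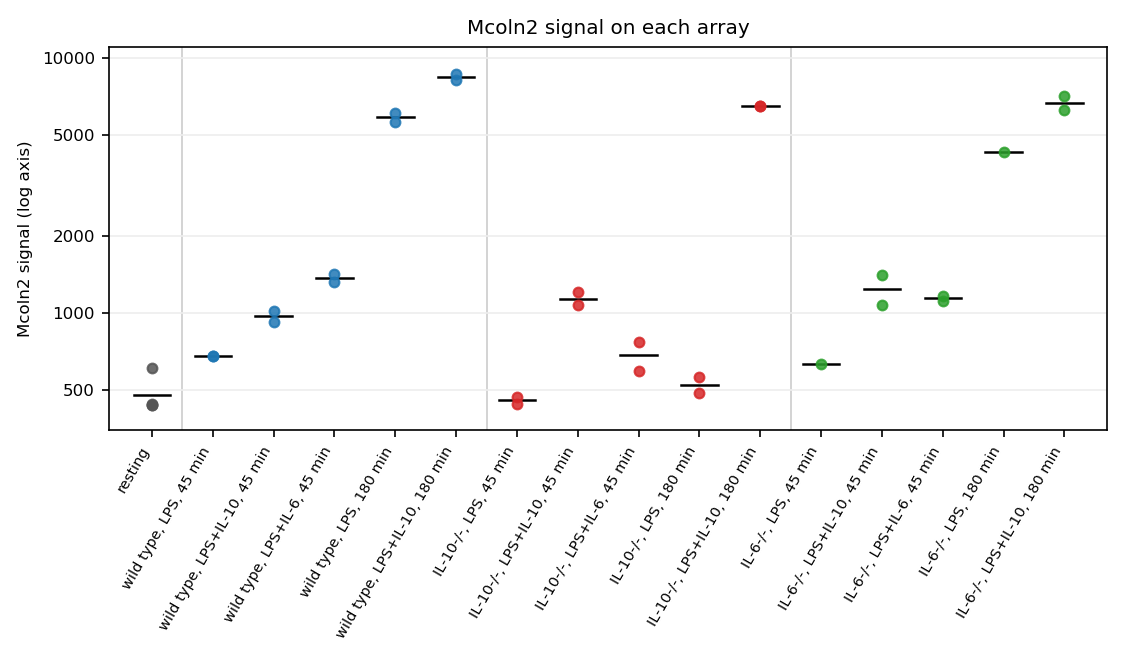
Mcoln2 signal on each of the 32 grouped arrays on a log axis; points are arrays and bars group means, grey resting, blue wild type, red IL-10-/-, green IL-6-/-. At 180 min IL-10-/- with LPS alone lies at 486 and 561, and every other array at that time at 4288 or above.

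At 45 min a smaller difference was already present. With IL-10 the Mcoln2 signals were 927 and 1016 in wild type, 1073 and 1205 for IL-10-/- and 1411 and 1076 for IL-6-/-. With LPS alone they were 682 and 681, 472 and 441, and 632 in the same order. No array with IL-10 was as low as any with LPS alone (0.87 ± 0.11 as the mean of the 3 genotypes, limma adjusted p = 2.1e-05). With IL-6 they were 1418 and 1329 in wild type, 773 and 597 for IL-10-/- and 1172 and 1116 for IL-6-/- (0.76 ± 0.11, limma adjusted p = 0.00046). In IL-10-/- the IL-6 arrays sat between LPS alone and LPS plus IL-10, while in wild type they sat above both. Chosen after these values were seen, the difference of IL-10 against IL-6 between IL-10-/- and wild type was 1.18 ± 0.26 and was not called (limma adjusted p = 0.18, unadjusted p = 0.00013), nor were the differences in response to IL-10 (0.75 ± 0.26, adjusted p = 1.00) or to IL-6 (-0.43 ± 0.26, adjusted p = 1.00). These 3 tests called 0 of 8224 probe sets.

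Of the 9 genes of the LPS response check, 2 were higher and 2 lower with IL-10 at 45 min (0.693% and 0.34% of all probe sets). With IL-6, 2 were higher (0.535%). These are means of the 3 genotypes, so changes of the Il6 probe set include IL-6-/- cells, in which it still gave signal. Socs3, a feedback inhibitor that both cytokines are known to induce, rose by 1.24 with IL-10 and by 0.89 with IL-6 (limma adjusted p = 3.7e-05 and 0.0075), and the Il6 probe set rose by 3.63 and 2.19 (limma adjusted p = 7.8e-08 and 0.00055). With IL-10, Tnf and Cxcl1, an inflammatory cytokine and a chemokine, changed by -1.41 and -1.197 (limma adjusted p = 0.00090 and 0.00035). As the mean over the arms at 45 min, Mcoln2 was 0.43 ± 0.11 lower in IL-10-/- than in wild type (limma adjusted p = 0.042). Of the 12 fits without 1 array, 11 lost this call, all but the fit without IL-10-/- LPS plus IL-6 replicate 1. Its rise of 0.48 ± 0.16 at 45 min against resting (limma adjusted p = 0.040) was lost without either LPS array and without resting replicates 1, 2 or 4.

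Apart from Mcoln2, no member was called when a cytokine was added or between genotypes in the model used throughout, which has no replicate block. This depends on the model. With a replicate block other members were also called for IL-10 at 180 min, in IL-10-/- and as the mean of the 3 genotypes. The same held for IL-6-/- against wild type. Counting all 42 members, added IL-10 at 180 min raised 0 in wild type (0.0608% of all probe sets), 1 in IL-10-/- (2.27%) and 1 as the mean of the 3 genotypes (2.04%; 3.82% in either direction), and lowered none by limma (0.073%, 1.26% and 1.78%). At 180 min the response to IL-10 was called different between IL-10-/- and wild type for 1 member, which was higher (0.438% of all; 0.122% lower). At 45 min added IL-10 raised 1 (0.693% of all; 0.34% lower, 1.03% in all) and added IL-6 raised 1 (0.535%), and neither lowered any by limma. IL-10-/- against wild type gave 1 lower member with LPS at 180 min (1.86%; 1.01% higher, 2.87% in all), 1 lower at 45 min over the 3 arms (0.559%; 1.29% in either direction) and 0 with LPS plus IL-10 at 180 min (0.122% higher, 0.0973% lower), where 4 had an unadjusted p under 0.05. IL-6-/- against wild type over the 3 cytokine arms gave 0 by limma (1.09% higher, 1.16% lower). Each called member in these counts was Mcoln2.

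The other 41 members stayed close to 0 when IL-10 was added. In wild type at 180 min they ran from -0.35 (Ctsz) to 0.59 (Atp6v0a1) with a median of 0.01, a typical standard error of 0.22, and 0 at an unadjusted p under 0.05. In IL-10-/- they ran from -0.61 (Atp6v1e1) to 0.56 (Ctse) with a median of 0.08, and 2 had an unadjusted p under 0.05. Over the 3 genotypes the range was -0.52 (Atp6v1e1, limma adjusted p = 0.10) to 0.33 (Atp6v0a1), with a standard error of 0.14. Without wild-type LPS plus IL-10 180 min replicate 1 this comparison called 2 members in place of 1. At 45 min the ranges were -0.28 to 0.20 with IL-10 and -0.44 to 0.25 with IL-6. Such errors leave room for changes below the size that limma called. In simulated data of this design it recovered 31% of changes of 1 and 79% of changes of 2 on the log2 scale between 180 and 45 min in wild type. Recovery was not computed for the comparisons of added cytokine, so these shares do not carry over to them.

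Of the 16 groups, IL-10-/- with LPS alone at 180 min had the lowest mean for 14 of the 42 members, and resting the highest for 15. The matching shares over all probe sets were not computed, so nothing is read from these counts about the members. Npc1 had the smallest adjusted p between the genotypes after Mcoln2: 1016 and 1037 in IL-10-/- against 1494 and 2064 in wild type at 180 min (-0.75, limma adjusted p = 0.090). The pairs of arrays did not overlap, but this was not a called difference, and 7 of these 41 members had an unadjusted p under 0.05. Shares of all probe sets at an unadjusted p under 0.05 are not given, so nothing is read from such counts, here or elsewhere. For IL-6-/- against wild type, 13 of 41 members had an unadjusted p under 0.05 and the smallest adjusted p was 0.058 in limma, so 0 were called. That count of 0 became 1 without wild-type LPS plus IL-10 45 min replicate 2, without wild-type LPS plus IL-10 180 min replicate 1, and without IL-6-/- LPS plus IL-10 45 min replicate 2.

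**Figure D4:**
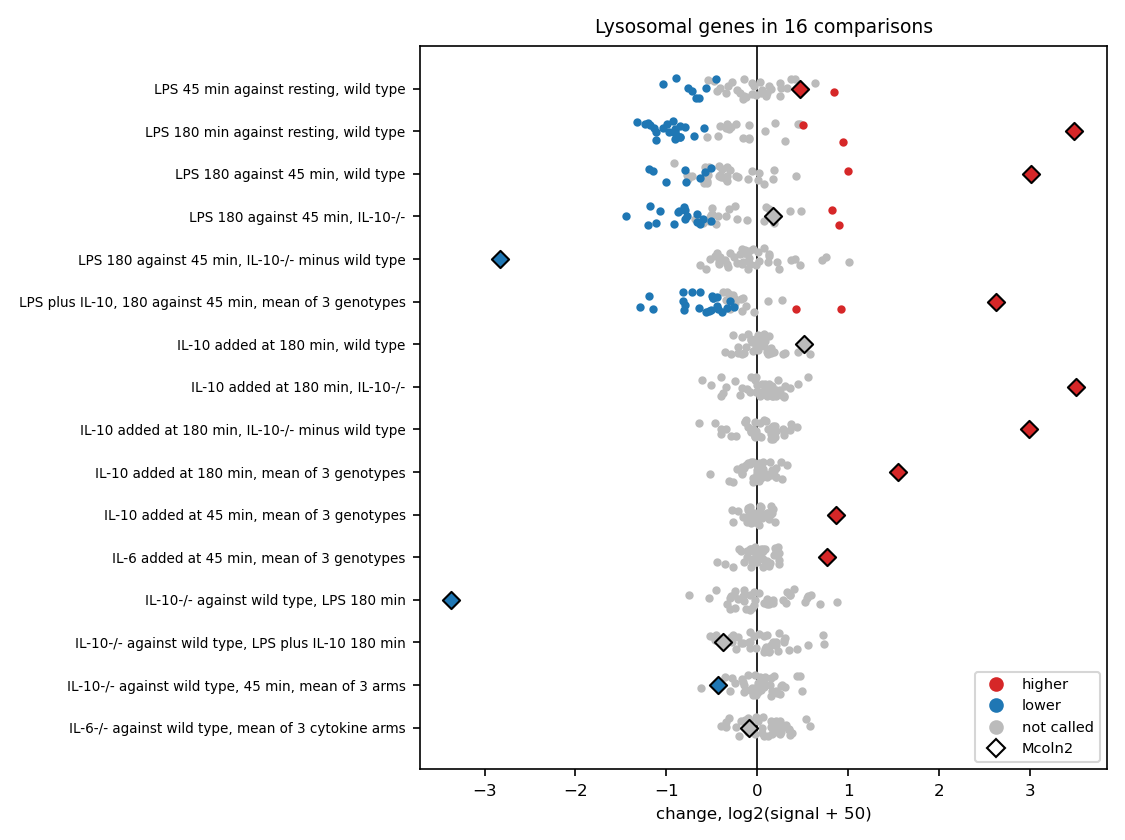
Change of the 42 tested members in log2(signal + 50) in each of the 16 comparisons; each point is 1 member (vertical spread within a row is for legibility), red higher and blue lower at an adjusted p under 0.05, grey not called, diamond Mcoln2. The first rows hold the changes with LPS and time; from the row of added IL-10 at 180 min in wild type downward, the only coloured points are Mcoln2.

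Ctse, the intracellular aspartic protease cathepsin E, depended on the probe set. The one with the highest mean, which stands for the gene in the counts, was called in none of the 16 comparisons. A second probe set (the middle panel of the plot of Ctse probe sets) gave 1811, 1815, 2677 and 1866 in resting cells, 278 and 192 in wild type at 45 min and 146 and 150 at 180 min. With LPS alone the IL-10-/- arrays gave 1353 and 1323 at 45 min and 1138 and 790 at 180 min. The lone IL-6-/- arrays gave 98.3 at 45 min and 125 at 180 min. This probe set thus separated resting and IL-10-/- arrays from wild-type and IL-6-/- stimulated arrays at both times, with no overlap.

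This second Ctse probe set reached a signal of 200 on 16 of the 32 grouped arrays, among them every resting and IL-10-/- array. Most stimulated wild-type arrays were below 200, so the sizes of its changes rest on low signals there. By limma it changed against resting by -2.87 at 45 min and -3.38 at 180 min in wild type. It was higher in IL-10-/- than in wild type by 2.34 with LPS at 180 min, by 2.25 with LPS plus IL-10 at 180 min and by 2.44 at 45 min over the 3 arms. Against wild type over the 3 cytokine arms, IL-6-/- gave -0.91, between signals that were mostly below 200. The last Ctse probe set gave 433 and 507 in IL-10-/-, and 533 and 349 in wild type, at 180 min of LPS; it was called in 1 comparison, at -0.99 against resting at 180 min. The level of Ctse is therefore uncertain, and none of these values enters the counts of members above.

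**Figure D5:**
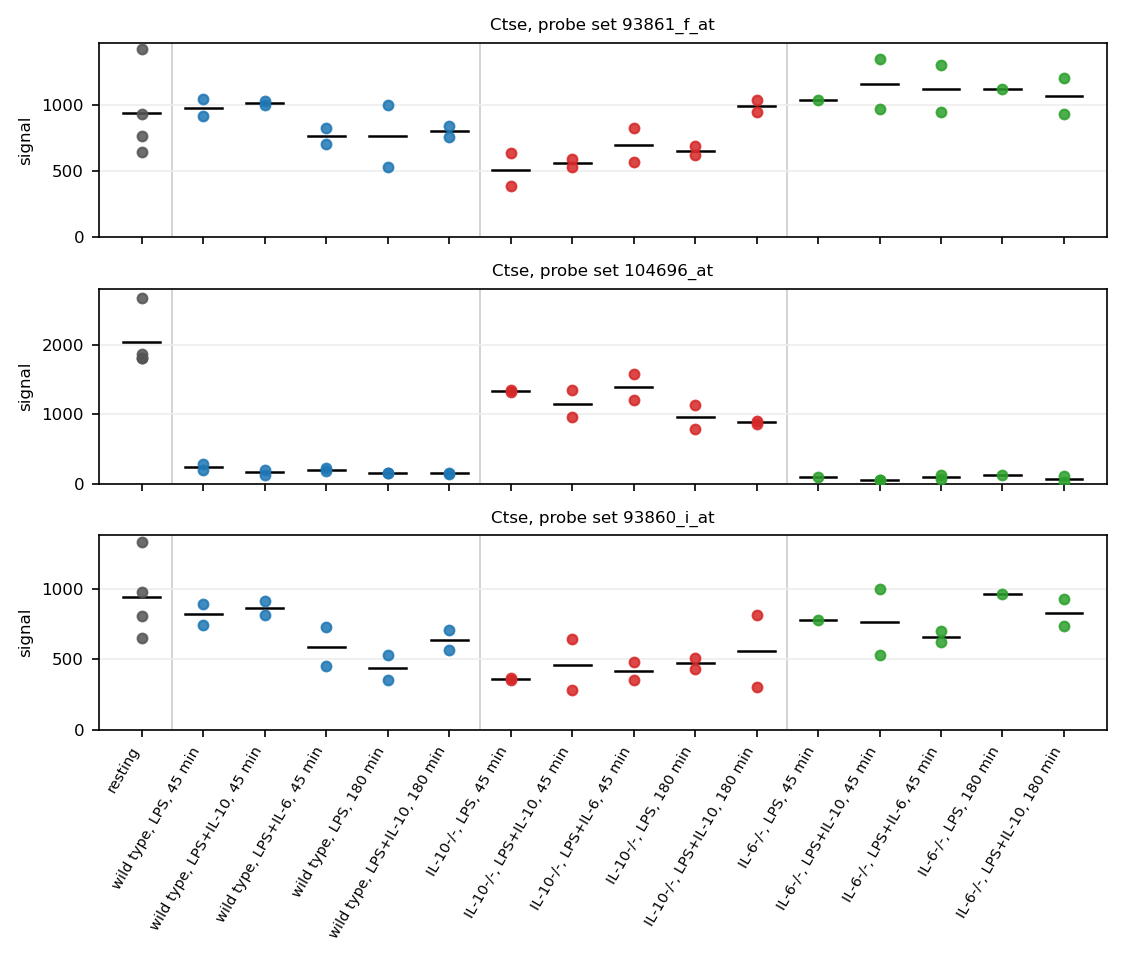
Signal of the 3 Ctse probe sets on each of the 32 grouped arrays, linear axes from 0; points are arrays, bars group means, grey resting, blue wild type, red IL-10-/-, green IL-6-/-. The middle panel is at 790 or more on all resting and IL-10-/- arrays and at 278 or less on all stimulated wild-type and IL-6-/- arrays; in the other panels these arrays overlap.

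Lists of related function are set against the shares over all probe sets in the same comparison, 19.4% lower and 14.4% higher. Of 21 other lysosomal enzymes tested, 12 were lower and 1 higher at 180 min against resting in wild type (median -0.83): Ifi30, the thiol reductase of antigen processing, by -2.34 ± 0.28, and Neu1, the lysosomal neuraminidase, by -1.89 ± 0.31, while Acp5, tartrate-resistant acid phosphatase, rose by 1.76 ± 0.29 (limma adjusted p = 3.4e-07, 2.9e-05 and 4.0e-05). Of 17 other membrane, cofactor and transporter genes 9 were lower and 1 higher (median -0.51), led by Cln8 (-2.67 ± 0.29) and Cln6 (-1.72 ± 0.25), both named for neuronal ceroid lipofuscinosis (limma adjusted p = 1.0e-07 and 8.2e-06). Of 28 genes of sorting and delivery 9 were lower and 2 higher (median -0.19), led by Gga2, a clathrin adaptor (-2.29 ± 0.44, limma adjusted p = 0.00021). Of 6 cathepsin inhibitors 1 was lower, Cst3 (cystatin C, -0.41 ± 0.13, limma adjusted p = 0.019), which is near the share over all probe sets.

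Among 20 genes of the TFEB family and nutrient signalling, 5 were lower and 2 higher against resting at 180 min (median -0.35), near the shares over all probe sets, so nothing is read for the list as a whole. Flcn, encoding folliculin, fell by 2.83 ± 0.22 and Lamtor1, an anchor of the Ragulator complex on lysosomes, by 1.60 ± 0.21 (limma adjusted p = 2.5e-10 and 2.2e-06). Tfeb itself was dim: it ranged from 41.2 to 263 at rest and was 20.1 and 34.3 in wild type at 180 min (-1.43 ± 0.49, limma adjusted p = 0.026). Mitf was not called (0.17 ± 0.40, limma). These groups hold neighbouring functions and were read with earlier results of the same arrays known, so they carry no independent weight.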

How the data were processed

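The authors deposited 1 linear intensity per probe set and array, computed with MAS5 per the submitters' processing notes (version not given). After trimming 2% at each end, array means were 499.874 to 499.91, which shows scaling to a common level; array medians ran from 158 to 237. Of 34 arrays, 32 were grouped by their titles; 1 with no genotype in its title and 1 with different times in title and protocol were left ungrouped. The treatment field of most cytokine arrays names LPS alone, so arms follow the titles. Symbols came from the platform table (10855 probe sets with 1 symbol, 396 with several, 1237 not listed).

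Signals were taken as log2(signal + 50). Probe sets at or above 200 on at least 2 grouped arrays were tested (8224, or 6070 genes). A single limma model (version 3.58.1, R 4.3.3) held all 16 groups and 32 arrays, a mean for each, with eBayes and an intensity trend (16 residual and 7.575 prior degrees of freedom), for 16 comparisons. P-values are 2-sided and adjusted by Benjamini-Hochberg within a comparison; a call is an adjusted p under 0.05. A group of 1 array was assumed to vary like the others. Titles call the arrays biological replicates without naming mice, so p-values measure the spread between arrays, and the number of arrays limits precision. The fit was tested on simulated data (8224 probe sets; 7 false calls).

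Members and lists were chosen with earlier results of these data known. Genes given with values were the largest called rises and falls, up to 6 of each per comparison, and at least 1 member of each role group; of the other lists, at most the 3 largest called changes. Alternatives were a pseudocount of 10 or 200, no filter or a filter at 500, quantile normalization, scaling to the 75th percentile, no trend, a replicate block, the mean of a gene's probe sets, wild type and IL-10-/- alone, and each array left out. Of the 15 members with several probe sets, no other probe set was called opposite to a called main one.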

Additional observations from a re-analysis of the deposited data

Results flagged for a closer look

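In resting cells Mcoln2 had 1 array far from the rest: replicate 3 gave 608.2 against 435.6 to 441.2 on the other 3. It was the only one of 44 members with such an array among the 4 resting ones, and chance alone gives about 1 in 20 groups.

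The response of Mcoln2 differed between IL-10-/- and wild type in both tests of a difference that were planned. The tests share the LPS 180 min arrays of both genotypes, so they are not independent. The change from 45 to 180 min of LPS was smaller in IL-10-/-, by a difference of -2.834 ± 0.258 (limma adjusted p = 2.0e-07). The change on adding IL-10 at 180 min was 2.991 larger (± 0.258, limma adjusted p = 9.0e-08).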

How the results depend on the processing

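Of 98 called changes of members, 55 kept direction and call under every alternative run and none reversed. Most losses came from leaving out 1 array. Without 1 array the number of called members ran from 3 to 9 at 45 min against resting, 20 to 26 at 180 min against resting, 5 to 7 (wild type) and 9 to 12 (IL-10-/-) for 180 against 45 min, 23 to 26 for LPS plus IL-10 over time, 1 to 2 for IL-10 at 180 min over 3 genotypes, 0 to 1 for IL-10-/- against wild type at 45 min, and 0 to 1 for IL-6-/- against wild type; the other counts of 0 or 1 did not move. The comparisons that use the lone IL-6-/- LPS arrays could not be fitted without them. The call of Mcoln2 in IL-10-/- against wild type at 45 min was lost (0 called) with a pseudocount of 200, quantile normalization, the 75th percentile and no trend. IL-6-/- against wild type gave 1 with a pseudocount of 200, a filter at 500 and, chosen after seeing the data, without resting replicate 4, where 180 against 45 min gave 21 in IL-10-/- and 12 in wild type.

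Replicate numbers were checked as a pairing: over 23 pairs of groups the correlation of replicate deviations was 0.0204 to 0.441 (median 0.12), and 13 exceeded 0.1. All were positive, so arrays of the same number may share some deviation, which the main model leaves out. With a replicate block the counts were 16 at 45 min against resting, 18 for 180 against 45 min in wild type, 3 for IL-10 at 180 min in IL-10-/-, 3 over the 3 genotypes and 2 for IL-6-/- against wild type, so members other than Mcoln2 were called in the last 3; other counts stayed within 1.5 times. Dim members such as Ctsk are limited by their signal, and Ctsg and Ctsw could not be tested.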

Other observations

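Tax1bp1, an autophagy adaptor that was no member, was called in the same direction as Mcoln2 in IL-10-/- against wild type at 180 min of LPS, on adding IL-10 to IL-10-/-, and in both tests of a difference between the genotypes. All of these comparisons use the same IL-10-/- arrays with LPS alone at 180 min. Tax1bp1 was singled out after its values were seen. At 180 min of LPS its mean signal was 12314 (wild type) and 4670 (IL-10-/-, arrays at 4387 and 4953). With LPS plus IL-10 at that time it was 16966 (wild type) and 14293 (IL-10-/-), and at 45 min of LPS 4772 (wild type) and 4559 (IL-10-/-). Tax1bp1 differed by -1.39 ± 0.14 between IL-10-/- and wild type at 180 min of LPS, and rose by 1.60 ± 0.14 on adding IL-10 to IL-10-/- (limma adjusted p = 4.2e-07 and 2.6e-08). Of 21 autophagy genes, 1 other was called on adding IL-10 to IL-10-/-: Sqstm1, the adaptor p62, at -0.96 ± 0.16 (limma adjusted p = 0.00024). Over all probe sets 2.27% were higher and 1.26% lower in that comparison. Against resting at 180 min in wild type, 8 of the 21 autophagy genes were lower and 4 higher (19.4% and 14.4% of all probe sets), with Nbr1, a relative of p62, at -2.59 ± 0.34 (limma adjusted p = 1.8e-06).

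In IL-10-/- at 180 min added IL-10 also raised Cln8 (1.58 ± 0.34) and Litaf, a late endosomal membrane protein (1.35 ± 0.24; limma adjusted p = 0.0049 and 0.00075). Over all probe sets 2.27% were higher in that comparison. Both genes had fallen there between 45 and 180 min of LPS alone (Cln8 by 2.50, Litaf by 1.21). The fall and the rise use the same IL-10-/- arrays with LPS alone at 180 min, so they are not independent.

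The 2 arrays in no group gave Mcoln2 signals of 744 (LPS for 45 min, genotype not in the title) and 4602 (IL-6-/- with LPS, 45 min in the title and 180 min in the protocol).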
